A study of Mus musculus with 17 samples.

Results

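CD8 T cells sorted from the tumour rim were compared between mice lacking PD-L1 in the endothelium, labelled KO, and WT mice. The comparison takes the 6 of 17 libraries whose titles give rim-enriched tissue, 4 from KO mice (F15, F322, F86 and O) and 2 from WT mice (H874 and H877), and covers all 20137 expressed genes of the 27240 in the table. Per the series' design text, rim-enriched cells came from parenchymal nodules of mouse lung tumours and core-enriched cells from macroscopic nodules, and all were isolated by flow sorting. The other 11 libraries are core-enriched, 5 from WT and 6 from KO mice, of which 1 WT core library is labelled a pool with no number of animals given, and serve here for the spread between libraries and as a reference level. The labels place the deletion in the endothelium and name no deletion in the T cells. The sources used here give neither the driver of the deletion nor the strain, age, tumour model and sort purity. Nothing in the labels says that libraries came from separate animals, so p-values measure the spread between libraries, which may be technical. F322, F86 and O name a KO core library as well as a KO rim library, while no identifier is shared between KO rim and WT rim.

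PD-1 is an inhibitory receptor of activated T cells, and its ligand PD-L1 is displayed by many cells, including those that line blood vessels. T cells that meet antigen for a long time in a tumour gain several inhibitory receptors at once, together with the transcription factor Tox, and this state is called exhaustion. Cells that still circulate carry instead receptors and factors for leaving tissue, such as S1pr1 and Klf2.

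In these libraries all 4 KO rim libraries lay above both WT rim libraries for 9 of 14 inhibitory receptors, 15 of 26 mitotic genes and 7 of 24 T cell receptor response genes, against 6.86% of all genes. They lay below both for 4 of 11 genes for egress and circulation, against 6.81% of all genes. Xcl1 averaged 82.9 ± 43.1 CPM (counts scaled to library size; SD, n = 4) in KO rim against 11.6 ± 5.45 CPM (SD, n = 2) in WT rim, and the T cell co-stimulator Tnfrsf9 averaged 204 ± 57 against 32.7 ± 3.63 CPM. No gene passed the test at an adjusted p under 0.05: edgeR's quasi-likelihood test with Benjamini-Hochberg adjustment called 0 genes (0%), with a smallest adjusted p of 0.0541. At an unadjusted p under 0.05, 941 genes were higher (4.67%) and 539 lower (2.68%) in KO rim. DESeq2's Wald test on the same counts called 249 genes higher (1.5%) and 16 lower (0.0964%) of the 16598 to which it gave an adjusted p. Of those 265 calls, 22 had a fitted log2 fold change beyond 10 in size, and 4 were the Y-linked genes looked at, of which only F322 and O among the rim libraries had many reads. Weighting libraries by quality with limma's voom called 6, all lower. Leaving out 1 library changed the edgeR count: 26 genes were called without F322, of which 25 were higher, 23 without H877 and 4 without H874, and 0 without O, F15 or F86. In bulk samples such as these, fewer cells of a type and less RNA per cell cannot be told apart.

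All 4 KO rim libraries lay above both WT rim libraries for 1382 genes (6.86%) and below both for 1372 (6.81%), and these shares are the background for the counts of each gene group below. For counts of DESeq2 calls in each group, the background is 1.5% of genes called higher and 0.0964% called lower. The median log2 fold change over all genes was 0.01. In the following, values in CPM are given in the order H874 and H877 for WT and F15, F322, F86 and O for KO. Log2 fold changes are KO over WT from edgeR, with a positive value for a higher level in KO. "Above" or "below" means that the 4 KO libraries did not overlap with the 2 WT libraries.

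Total counts of the rim libraries ran from 21767045 to 24690274. The median absolute log2 difference per gene, over 10275 genes at 5 CPM or more, was 0.411 for the WT pair and 0.258 to 0.368 for KO pairs. By correlation of log2 CPM across all genes tested the order differed, with 0.908 for the WT pair and 0.897 for F86 and O, the least alike KO pair. H874 correlated more with F322 (0.936, the highest of all pairs), F15 (0.925) and F86 (0.911) than with H877, and less with O (0.899). H877 stood at 0.914 with F15, 0.910 with F322, 0.909 with F86 and 0.903 with O. By this measure the rim libraries did not group by genotype. Without H874 the fold changes of 35 of the 130 genes followed across settings moved by over 1.5 times, and without H877 those of 38, against 0 to 7 without any 1 of the KO libraries. Leaving out 1 of 2 libraries moves a group mean more than leaving out 1 of 4. These counts therefore do not show how alike the libraries of a group are. Y-linked reads were many in F322 and O (12044 and 11788) and few in the other rim libraries (51 to 236). Counts of the X-linked transcript Xist were 0 in F322 and O and 1095 to 1359 in the other rim libraries. Both WT rim libraries thus had the pattern of F15 and F86, and the genotype groups were not matched for it. Transcripts of other cell types also varied by library and are given beside the gene groups they move with, and at the end.

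The 12 genes with the smallest unadjusted p among those higher in KO rim, under a filter of non-overlapping groups and at least 5 CPM, were Pvrig, Glp1r, Kntc1, Xcl1, Chek1, Clgn, Tnfsf4, Shmt1, Tnfrsf9, Nrn1, Tnfrsf4 and Ppp2r2c. Their edgeR adjusted p ran from 0.0541 to 0.107. DESeq2 called all 12, on the same counts from which they were chosen, so its calls are no separate evidence. In the plot of the 24 leading genes, WT and KO rim libraries separate on each line because the choice of genes required it.

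**Figure D1:**
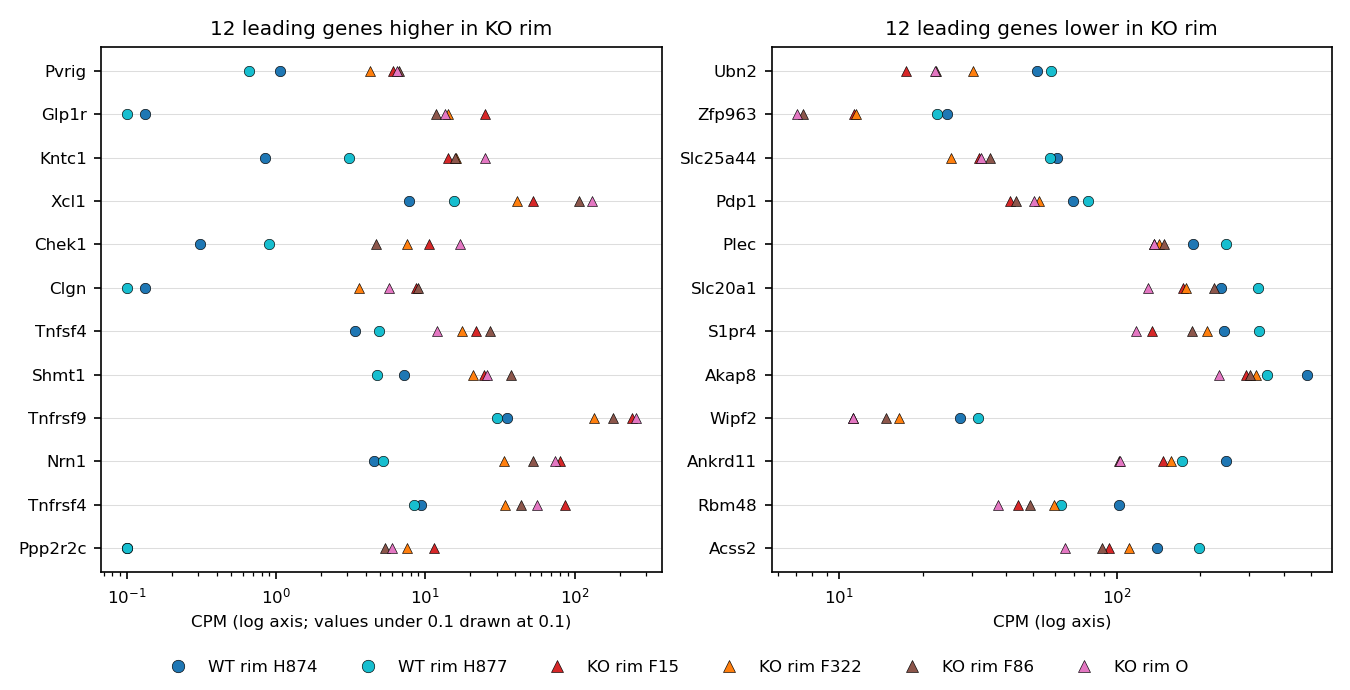
CPM (log axis) of the 12 leading genes in each direction, 1 point per rim library, circles for WT and triangles for KO. Genes higher in KO, such as Glp1r with 0 to 0.133 CPM in WT and 11.8 to 24.9 CPM in KO, differ by wider margins than genes lower in KO, such as Plec with 188 and 248 CPM in WT and 137 to 148 CPM in KO.

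Xcl1, a chemokine made by CD8 T cells and natural killer cells that attracts cross-presenting dendritic cells, lies on chromosome 1 at 164931644 to 164935522 (GRCm38.p6). It stood at 7.78 and 15.5 CPM in WT and at 52.7, 40.9, 107 and 131 CPM in KO (log2 fold change 2.83, SE 0.47, edgeR adjusted p = 0.061, DESeq2 adjusted p = 4.1e-08). The KO values fell into a lower pair (F15 and F322) and a higher pair (F86 and O), and the lowest of them was above both WT values. Ccl1, a chemokine of activated T cells that binds Ccr8, stood at 2.39 and 0.469 CPM in WT and at 12.4, 3.47, 12.6 and 51.9 CPM in KO (log2 fold change 3.80, SE 0.92, edgeR adjusted p = 0.254). The O library was highest for Ccl1, and F322 was close to WT H874. Ccl3, a chemokine for monocytes and T cells, stood at 15.3 and 45.4 CPM in WT and at 97.7, 58, 112 and 128 CPM in KO (log2 fold change 1.71, SE 0.69, adjusted p = 0.63). Of 8 T cell chemokines tested, 3 were above and 0 below, against 6.86% and 6.81% of all genes, and DESeq2 called 2 of them higher, Xcl1 and Ccl1, against 1.5% of all genes.

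Tnfrsf9, the co-stimulatory receptor 4-1BB that T cells gain after antigen contact (chromosome 4, 150920155 to 150946104), stood at 35.3 and 30.1 CPM in WT and at 242, 135, 182 and 258 CPM in KO. Its log2 fold change was 2.64 (SE 0.48, edgeR adjusted p = 0.0866, DESeq2 adjusted p = 6.3e-07). The WT libraries were close to each other, and F322 was the lowest KO library. Tnfrsf4, the co-stimulatory receptor OX40 (chromosome 4, 156013595 to 156016613), stood at 9.32 and 8.4 CPM in WT and at 86, 34.2, 43.6 and 56.1 CPM in KO (log2 fold change 2.63, SE 0.50, edgeR adjusted p = 0.096). Its ligand Tnfsf4 (chromosome 1, 161395438 to 161418206) stood at 3.4 and 4.93 CPM in WT and at 22, 17.6, 27.1 and 12 CPM in KO (log2 fold change 2.24, SE 0.39, edgeR adjusted p = 0.0641). Receptor and ligand were thus both above WT in each KO library, with F15 highest for Tnfrsf4 and F86 highest for Tnfsf4.

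Of 10 co-stimulatory receptors, 4 were above and 1 below, with a median log2 fold change of 0.49. DESeq2 called Tnfrsf9 and Tnfrsf4 higher. Crtam, an adhesion receptor of activated CD8 T cells, stood at 48.3 and 42 CPM in WT and at 61.1, 75.3, 106 and 100 CPM in KO (log2 fold change 0.92). The member below was Tnfrsf25, a death-domain receptor of T cells named after its values were seen, at 13.3 and 25.1 CPM in WT and at 9.23, 10.5, 7.85 and 2.98 CPM in KO. Of 12 TNF family ligands, 6 were above and 0 below (median log2 fold change 0.93), and DESeq2 called Tnfsf4. Tnfsf10, the death ligand TRAIL, stood at 42.9 and 46.5 CPM in WT and at 80, 54.7, 91.3 and 140 CPM in KO. Lta, lymphotoxin alpha, stood at 12.9 and 5.07 CPM in WT and at 22, 13, 57.2 and 31.1 CPM in KO, where F322 nearly met WT H874.

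Inhibitory receptors, which dampen T cell activation, gave 9 of 14 above and 1 below, with a median log2 fold change of 1.40. edgeR called none of them, and DESeq2 called 6 higher (Cd101, Cd200r1, Lag3, Pdcd1, Pvrig and Tigit), against 1.5% of all genes. Pdcd1, which encodes PD-1 (chromosome 1, 94038305 to 94052553), stood at 236 and 399 CPM in WT and at 1042, 1073, 1042 and 1114 CPM in KO (log2 fold change 1.75, SE 0.56, edgeR adjusted p = 0.45, DESeq2 adjusted p = 0.042). The 4 KO libraries were nearly equal for Pdcd1. Lag3, a receptor for MHC class II that restrains T cells (chromosome 6, 124904359 to 124912434), stood at 8.79 and 26.2 CPM in WT and at 108, 49.4, 96.5 and 84.7 CPM in KO (log2 fold change 2.27, SE 0.52, edgeR adjusted p = 0.229, DESeq2 adjusted p = 0.00044). Tigit, a receptor for CD155, stood at 61.1 and 64.1 CPM in WT and at 248, 272, 206 and 224 CPM in KO (log2 fold change 1.92, SE 0.47, edgeR adjusted p = 0.258, DESeq2 adjusted p = 0.0024).

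The remaining checkpoint receptors differed in how near WT H877 came to the KO range. Havcr2, which encodes TIM-3, stood at 28 and 84 CPM in WT and at 172, 95.4, 125 and 160 CPM in KO (log2 fold change 1.30, SE 0.52, edgeR adjusted p = 0.617), so that H877 lay just under F322. Ctla4, which competes with Cd28 for its ligands, stood at 157 and 163 CPM in WT and at 574, 414, 490 and 343 CPM in KO (log2 fold change 1.51, SE 0.53, edgeR adjusted p = 0.515). Cd160, an inhibitory receptor for HVEM, stood at 35.9 and 88.6 CPM in WT and at 128, 108, 148 and 140 CPM in KO (log2 fold change 1.07). Ctla4 left a wide gap between the groups, and Cd160 a narrow one. The log2 fold change of Cd160 was 0.56 without H874 and 1.88 without H877.

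Pvrig, an inhibitory receptor for the nectin family (chromosome 5, 138341931 to 138348691), led the 12 genes higher in KO. It stood at 1.06 and 0.657 CPM in WT and at 6.06, 4.23, 6.67 and 6.51 CPM in KO (log2 fold change 2.76, SE 0.43, edgeR adjusted p = 0.0541, DESeq2 adjusted p = 8.7e-08). A pseudogene, Pvrig-ps, has its own entry in the table, and how the authors' counting split reads between the 2 is not known, so the level of Pvrig is uncertain. Cd200r1, named after its values were seen, stood at 11 and 17.6 CPM in WT and at 74.8, 39.6, 69.3 and 105 CPM in KO (log2 fold change 2.33). Cd101, a receptor of terminally exhausted cells, stood at 27.8 and 20.7 CPM in WT and at 89.6, 55.1, 70 and 63.8 CPM in KO (log2 fold change 1.52). The member below was Vsir, which encodes VISTA and was also named after its values were seen, at 394 and 389 CPM in WT and at 315, 331, 282 and 272 CPM in KO (log2 fold change -0.39, SE 0.16, edgeR adjusted p = 0.642). Leaving out H874 reduced the log2 fold change of Havcr2 to 0.71, while that of Pdcd1 was then 1.42, Lag3 1.69 and Pvrig 3.15.

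**Figure D2:**
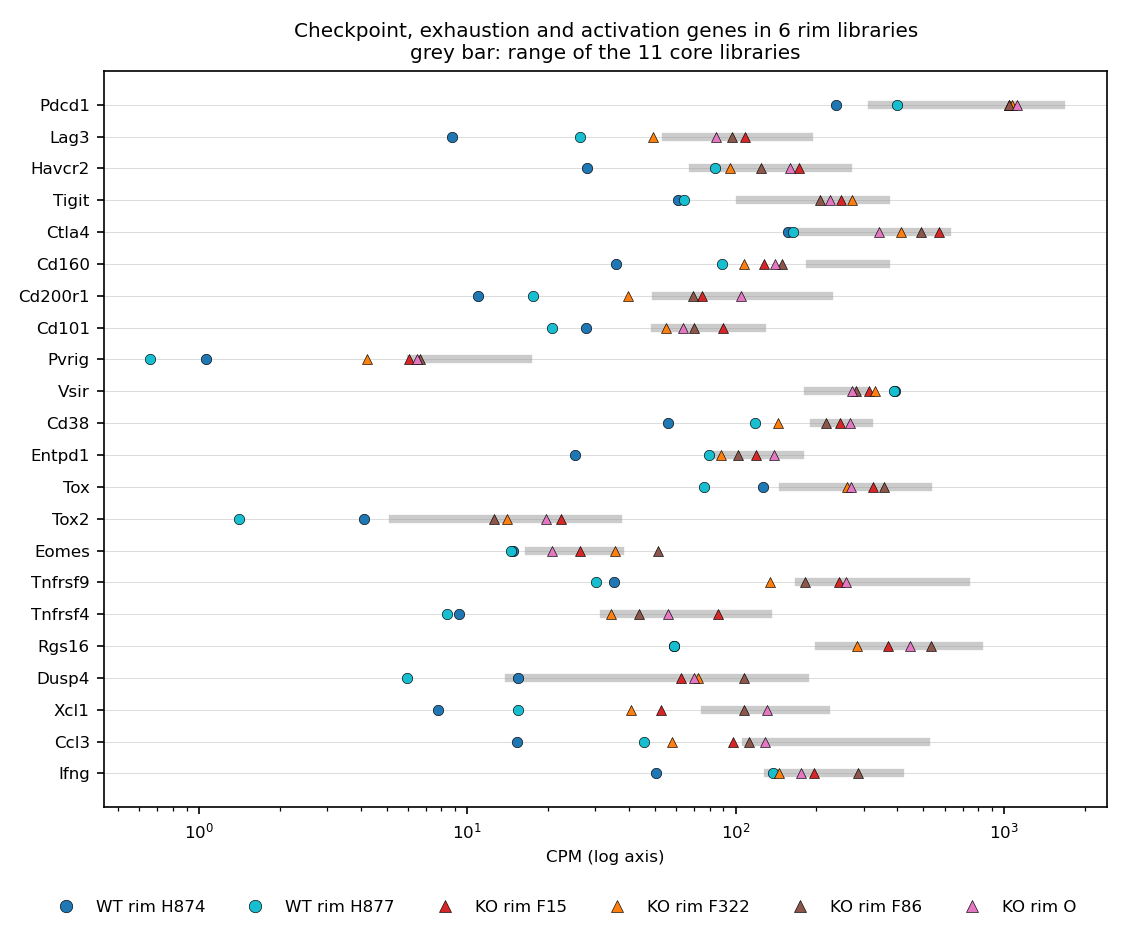
CPM (log axis) of 22 checkpoint, exhaustion and activation genes in the 6 rim libraries, with a grey bar for the range of the 11 core libraries. Pdcd1 at 1042 to 1114 CPM and Tigit at 206 to 272 CPM in KO rim lie inside the core range, and WT rim lies at or under its lower end for all genes shown but Vsir, which is above its upper end, and H877 or H874 of a few such as Pdcd1, Havcr2, Dusp4 and Ifng, which reach into it.

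Among ectoenzymes and receptors for extracellular nucleotides and adenosine, 3 of 5 were above and 0 below. Cd38, an enzyme that consumes NAD and marks exhausted CD8 T cells, stood at 55.9 and 118 CPM in WT and at 245, 144, 217 and 266 CPM in KO (log2 fold change 1.33, SE 0.28, edgeR adjusted p = 0.173, DESeq2 adjusted p = 0.00093). Entpd1, which encodes CD39, stood at 25.2 and 79.2 CPM in WT and at 119, 88.3, 102 and 139 CPM in KO (log2 fold change 1.10). Adora2a, the adenosine receptor, overlapped between groups, at 39.6 and 67.4 CPM in WT and at 85.1, 59.7, 101 and 67.1 CPM in KO. For Cd38 and Entpd1, H877 was nearer to KO than H874 was. Without H874 the log2 fold change was 0.89 for Cd38 and 0.50 for Entpd1, and without H877 it was 1.98 and 2.17.

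Genes for PD-1 and CD28 family ligands gave 0 of 7 above and 0 below, with a median log2 fold change of -0.06. Cd274, which encodes PD-L1, stood at 126 and 194 CPM in WT and at 171, 133, 156 and 152 CPM in KO (log2 fold change -0.06, SE 0.30, edgeR adjusted p = 0.988). The KO values all lay between the WT values, and since the deletion is endothelial this level is no check of it. Pdcd1lg2, which encodes PD-L2, stood at 8.35 and 5.91 CPM in WT and at 15.6, 8.17, 8.6 and 15.3 CPM in KO. Icosl, the ligand of Icos, was at 20.9 CPM in H874, 49.8 CPM in H877 and 17.2 to 21.8 CPM in KO.

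Of 17 exhaustion-associated transcription factors, 16 had a positive log2 fold change (median 0.67), 6 were above and 0 below. Over all genes tested 50.8% of fold changes were positive and 48.2% negative. Tox, a factor that establishes the exhausted state (chromosome 4, 6686353 to 6991557), stood at 126 and 76.5 CPM in WT and at 326, 261, 356 and 269 CPM in KO (log2 fold change 1.58, SE 0.43, edgeR adjusted p = 0.322, DESeq2 adjusted p = 0.013). Its relative Tox2 stood at 4.11 and 1.41 CPM in WT and at 22.3, 14, 12.5 and 19.6 CPM in KO (log2 fold change 2.63, SE 0.74, edgeR adjusted p = 0.354, DESeq2 adjusted p = 0.0068). Eomes, a T-box factor of memory and exhausted cells, stood at 14.8 and 14.6 CPM in WT and at 26.4, 35.5, 51.6 and 20.7 CPM in KO (log2 fold change 1.19, edgeR adjusted p = 0.411). F86 was highest for Tox and Eomes, and F15 for Tox2.

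Genes that respond to T cell receptor signals gave 7 of 24 above and 0 below, with a median log2 fold change of 0.60. DESeq2 called 4 higher (Dusp4, Rgs16, Tnfrsf4 and Tnfrsf9), against 1.5% of all genes. Tnfrsf4 and Tnfrsf9 are counted among the co-stimulatory receptors as well. Rgs16, a brake on chemokine receptor signalling (chromosome 1, 153740353 to 153745468), stood at 59.1 and 58.8 CPM in WT and at 368, 282, 533 and 445 CPM in KO (log2 fold change 2.79, SE 0.55, edgeR adjusted p = 0.132, DESeq2 adjusted p = 4.8e-06). Dusp4, a phosphatase of MAP kinases named after its values were seen, stood at 15.4 and 5.96 CPM in WT and at 62.5, 72.1, 107 and 69.9 CPM in KO (log2 fold change 2.86, SE 0.91, edgeR adjusted p = 0.449, DESeq2 adjusted p = 0.012). Nrn1, which encodes neuritin and is not a member of this list (chromosome 13, 36725622 to 36734477), stood at 4.51 and 5.21 CPM in WT and at 80.1, 33.4, 52.3 and 74.2 CPM in KO (log2 fold change 3.63, SE 0.67, edgeR adjusted p = 0.0866). In all 3 the WT pair lay far under the lowest KO library.

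Effector cytokines had a positive log2 fold change in 11 of 11 (median 1.09), with 5 above and 0 below, and neither edgeR nor DESeq2 called any. Ifng, interferon gamma, stood at 50.4 and 138 CPM in WT and at 196, 145, 285 and 175 CPM in KO (log2 fold change 1.09, SE 0.46, edgeR adjusted p = 0.642). H877 was close to F322 for Ifng, and the log2 fold change was 0.54 without H874 and 2.01 without H877. Il10, a suppressive cytokine, stood at 2.17 and 3.1 CPM in WT and at 8.04, 17.7, 8.31 and 4.77 CPM in KO (log2 fold change 1.88, adjusted p = 0.694). Cytotoxic granule genes did not share this direction: 3 of 14 were above, 0 below, and the median log2 fold change was -0.03.

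Among the granule genes, Gzmb stood at 227 and 877.4 CPM in WT and at 464, 521, 659 and 427 CPM in KO (log2 fold change -0.09, SE 0.41, edgeR adjusted p = 0.986), and its direction changed under several settings of the processing. Prf1, perforin, stood at 115 and 365 CPM in WT and at 249, 239, 267 and 227 CPM in KO (log2 fold change 0.03, SE 0.41, edgeR adjusted p = 1). For both genes the KO libraries lay between a low H874 and a high H877. Gzma was at 297 CPM in H874 and 2259 CPM in H877, against 379, 432, 648 and 365 CPM in KO. Gzmk, a granzyme of memory-like cells, was above, at 46 and 82.3 CPM in WT and at 118, 184, 134 and 100 CPM in KO (log2 fold change 1.06, edgeR adjusted p = 0.659). Cst7, an inhibitor of granule proteases, was also above, at 84.4 and 94.3 CPM in WT and at 192, 174, 174 and 179 CPM in KO (log2 fold change 1.01, SE 0.30, edgeR adjusted p = 0.404).

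Egress and circulation genes had a negative log2 fold change in 11 of 11 (median -0.81), with 0 above and 4 below. For some members this direction rested on 1 WT library. The log2 fold change of Ccr7 was 0.67 without H874, and without H877 that of Cx3cr1 was 0.77 and that of Zeb2 0.88. It stayed negative without any 1 rim library for S1pr1, S1pr4, Klf2, Klrg1, Itga4 and Itgb7. S1pr4, a receptor for sphingosine 1-phosphate on lymphocytes (chromosome 10, 81497745 to 81500137), stood at 244 and 325 CPM in WT and at 134, 212, 187 and 118 CPM in KO (log2 fold change -0.81, SE 0.22, edgeR adjusted p = 0.322). Klf2, the factor that drives S1pr1, stood at 44.8 and 55.2 CPM in WT and at 20.4, 29.4, 23.7 and 16.7 CPM in KO (log2 fold change -1.15, SE 0.41, edgeR adjusted p = 0.531). S1pr1, the receptor that guides T cells out of tissue, overlapped, at 2012 and 1026 CPM in WT and at 896, 1297, 850 and 733 CPM in KO (log2 fold change -0.69, SE 0.33, edgeR adjusted p = 0.694). F322 was the KO library nearest to WT for S1pr4, Klf2 and S1pr1. The other members below were the integrin chains Itga4, at 685 and 907 CPM in WT and 393 to 679 CPM in KO, and Itgb7, at 1041 and 1183 CPM in WT and 711 to 917 CPM in KO. edgeR and DESeq2 called none of the 11.

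Tissue residency genes pointed the other way, with a positive log2 fold change in 9 of 9 (median 0.24), 4 above and 0 below. Ccr8, a chemokine receptor of tissue T cells that binds Ccl1, stood at 24.7 and 6.57 CPM in WT and at 104, 57.9, 78.4 and 94.3 CPM in KO (log2 fold change 2.42, SE 0.63, edgeR adjusted p = 0.315, DESeq2 adjusted p = 0.0027). Rgs1, a brake on chemokine receptors in resident cells, stood at 193 and 444 CPM in WT and at 812, 575, 650 and 666 CPM in KO (log2 fold change 1.09). Cxcr6, the receptor for Cxcl16, stood at 245 and 559 CPM in WT and at 1264, 691, 907 and 1493 CPM in KO (log2 fold change 1.44, SE 0.61, edgeR adjusted p = 0.642). Among 14 chemokine receptors 4 were above and 0 below, and DESeq2 called Ccr6, Ccr8 and Cxcr3. Cxcr3, the receptor for interferon-induced chemokines, stood at 44.6 and 98.3 CPM in WT and at 115, 128, 179 and 162 CPM in KO (log2 fold change 1.03, SE 0.26, edgeR adjusted p = 0.284). Ccr6 was low throughout, at 0 and 0.751 CPM in WT and 1.85 to 4.27 CPM in KO. These values turned on which WT library was kept. Without H874 the log2 fold change was 3.66 for Ccr8, 0.60 for Rgs1, 0.96 for Cxcr6 and 0.57 for Cxcr3. Without H877 it was 1.77 for Ccr8, 1.83 for Rgs1, 2.17 for Cxcr6 and 1.73 for Cxcr3.

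Integrins and vessel adhesion genes gave 0 of 14 above and 2 below, the 2 chains already given, with a median log2 fold change of -0.16. Itgal, a chain of the integrin LFA-1, stood at 798 and 1674 CPM in WT and at 843, 974, 1195 and 947 CPM in KO. Of 23 cytokine receptors 1 was above and 0 below, namely Il2rb, the IL-2 and IL-15 receptor chain, at 947 and 1087 CPM in WT and at 1616, 1519, 1769 and 1773 CPM in KO (log2 fold change 0.71, SE 0.28, edgeR adjusted p = 0.602). Il2ra, the high-affinity IL-2 receptor chain, overlapped through F322 alone, at 8 and 15.3 CPM in WT and at 20.8, 11.3, 25.8 and 47.9 CPM in KO. Natural killer lectin-like receptors gave 0 of 13 above and 0 below. Klrc2, one of them, ran from 5.69 to 43.5 CPM in KO around 16.5 and 76.4 CPM in WT. Klra6, of a family of near-identical genes and so uncertain, ran from 7.28 to 21.7 CPM in KO against 1.24 and 8.82 CPM in WT.

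Stem-like and memory genes showed a negative log2 fold change in 10 of 13 (median -0.46), with 0 above and 1 below, and the median was 0.35 without H874. Tcf7, the factor of stem-like CD8 T cells, stood at 1112 and 258 CPM in WT and at 509, 653, 491 and 341 CPM in KO (log2 fold change -0.46, SE 0.47, edgeR adjusted p = 0.851), and its log2 fold change was 0.95 without H874. Foxo1, which drives Klf2 and memory genes, stood at 84.9 and 60.2 CPM in WT and at 42.9, 61.4, 26.4 and 38.1 CPM in KO (log2 fold change -0.78). Klf3, a relative of Klf2, was the member below, at 180 and 136 CPM in WT and at 64.6, 123, 103 and 59.5 CPM in KO (log2 fold change -0.85, SE 0.33, edgeR adjusted p = 0.59). Bach2, a repressor of effector genes, was at 89.1 CPM in H874 and 26.8 CPM in H877, against 18.3 to 49.9 CPM in KO.

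The 2 WT rim libraries stood apart along this axis, in genes named after their values were seen. H874 was the higher in Lef1 (1141 against 273 CPM), Ccr7 (3187 against 830 CPM) and Il7r (1130 against 387 CPM), which mark naive and memory cells. H877 was the higher in Klrg1 (284 against 75.3 CPM), Cx3cr1 (362 against 61.7 CPM) and Zeb2 (307 against 50.8 CPM), which mark circulating effector cells. For Lef1, at 317 to 763 CPM, and Cx3cr1, at 75.2 to 135 CPM, the KO libraries lay between the 2. Klrg1 stood at 27.7, 44.9, 106 and 24.8 CPM in KO, so that F15, F322 and O were under both WT libraries. Il18rap, an IL-18 receptor chain, likewise stood at 100.3 and 666 CPM in WT and at 110, 160, 249 and 154 CPM in KO. Of the 10275 genes at 5 CPM or more, 18.6% differed by over 1 on the log2 scale between H874 and H877. Cytosolic ribosomal protein genes differed in the same way, with a summed level of 40528 CPM in H874, 19248 CPM in H877 and 22920 to 30598 CPM in KO. Their median log2 fold change was -0.18, with 73 of 77 negative and none above or below, and it was 0.46 without H874. Rps27 stood at 911 and 337 CPM in WT and 279 to 548 CPM in KO, and Rpl31 at 272 and 157 CPM in WT and 155 to 182 CPM in KO.

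**Figure D3:**
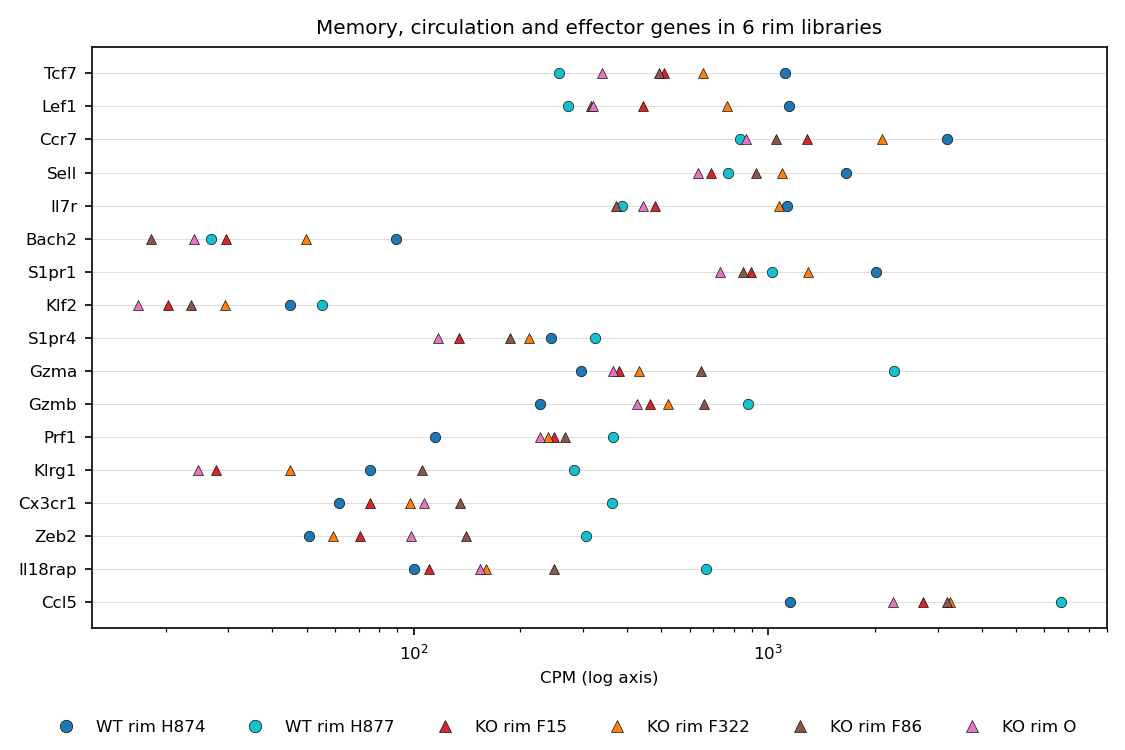
CPM (log axis) of 17 memory, circulation and effector genes in the 6 rim libraries, circles for WT and triangles for KO. H874 is highest for Tcf7, Lef1, Ccr7 and S1pr1, H877 is highest for Gzma, Klrg1, Cx3cr1 and Ccl5, and both WT libraries lie above KO only for Klf2 and S1pr4.

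Mitosis and G2/M genes had a positive log2 fold change in 26 of 26 (median 1.44), with 15 above and 0 below. DESeq2 called 10 of them higher, against 1.5% of all genes. Ccnb2, cyclin B2 (chromosome 9, 70407689 to 70421554), stood at 16.9 and 21.6 CPM in WT and at 61.9, 30.4, 58.5 and 77.2 CPM in KO (log2 fold change 1.56, SE 0.36, edgeR adjusted p = 0.232, DESeq2 adjusted p = 0.0025). Kif2c, a kinesin of the centromere, stood at 3.84 and 3.38 CPM in WT and at 13.1, 6.9, 24 and 27.7 CPM in KO (log2 fold change 2.31, SE 0.54, edgeR adjusted p = 0.244). Top2a, the topoisomerase of dividing cells (chromosome 11, 98992947 to 99024199), stood at 50.6 and 64.6 CPM in WT and at 206, 109, 188 and 303 CPM in KO (log2 fold change 1.81, SE 0.47, edgeR adjusted p = 0.31, DESeq2 adjusted p = 0.0056). F322 was lowest and O highest of the KO libraries in all 3. Mki67, the proliferation marker Ki-67, stood at 23 and 38 CPM in WT and at 67.5, 40.1, 80.9 and 103 CPM in KO (log2 fold change 1.25, SE 0.48, edgeR adjusted p = 0.592), so that F322 was barely above H877.

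Promoter sequences of the listed mitosis and G2/M genes were searched for known motifs. The shares below describe the list and use no KO or WT value, so they are no test of the KO difference. RefSeq windows of 300 bases around the start site (GRCm38.p6) were matched for 14139 of the genes tested, with 18045 windows, and for 22 of the mitosis and G2/M genes, with 23 windows. The element TTTGAA, known as CHR and bound by the complex that times mitotic genes, stood on either strand in 18 of those 23 windows (78.3%) and in 14.0% of all windows. The CCAAT box, searched as CCAAT on both strands, stood in 20 of the 23 (87.0%) and in 37.0% of all windows. In DNA replication and G1/S genes TTTGAA stood in 13.0% of windows and CCAAT in 69.6%. In the windows shown no match of one motif overlapped the other. The windows of Ccnb2 (chr9:70421505-70421804), Kif2c (chr4:117178723-117179022) and Top2a (chr11:99024140-99024439), all on the minus strand, are shown because these are the 3 genes whose values lead the group above. Matches on either strand to TTTGAA and CCAAT are in capitals, and the Kif2c window holds 1 match to TTTGAA and 0 to CCAAT. Kif2c spans 117159633 to 117182624 on chromosome 4, so its window lies at a start site inside the gene. The windows of Ccnb2 and Top2a lie at the outer start of the gene.
Ccnb2: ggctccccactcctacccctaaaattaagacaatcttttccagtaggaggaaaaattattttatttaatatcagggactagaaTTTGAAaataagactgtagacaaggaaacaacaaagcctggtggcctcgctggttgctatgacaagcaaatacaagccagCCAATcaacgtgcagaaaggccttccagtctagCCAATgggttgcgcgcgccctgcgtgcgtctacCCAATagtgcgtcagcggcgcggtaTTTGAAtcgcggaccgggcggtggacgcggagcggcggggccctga
Kif2c: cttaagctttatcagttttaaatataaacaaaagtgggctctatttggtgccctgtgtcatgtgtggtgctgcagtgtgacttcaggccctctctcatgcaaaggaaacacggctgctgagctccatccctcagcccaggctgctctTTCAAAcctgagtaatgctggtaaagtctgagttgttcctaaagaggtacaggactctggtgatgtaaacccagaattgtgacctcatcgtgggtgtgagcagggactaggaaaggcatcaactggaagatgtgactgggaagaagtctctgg
Top2a: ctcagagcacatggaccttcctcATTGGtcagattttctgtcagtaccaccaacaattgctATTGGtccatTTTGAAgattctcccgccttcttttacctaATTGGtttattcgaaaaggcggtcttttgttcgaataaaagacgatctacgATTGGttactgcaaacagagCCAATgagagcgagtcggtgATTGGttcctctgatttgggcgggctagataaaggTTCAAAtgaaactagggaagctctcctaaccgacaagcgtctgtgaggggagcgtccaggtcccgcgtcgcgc

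In T cell receptor response genes, the AP-1 site TGANTCA stood in 7.14% of 28 windows against 6.07% of all windows, and the NFAT core TGGAAA in 21.4% against 18.7%. Those shares were near the background. A second Tnfrsf9 window (chr4:150927749-150928048, plus strand), shown for its AP-1 match, holds TGAGTCA in capitals just before a start site. The other Tnfrsf9 window holds 0 AP-1 matches.
Tnfrsf9: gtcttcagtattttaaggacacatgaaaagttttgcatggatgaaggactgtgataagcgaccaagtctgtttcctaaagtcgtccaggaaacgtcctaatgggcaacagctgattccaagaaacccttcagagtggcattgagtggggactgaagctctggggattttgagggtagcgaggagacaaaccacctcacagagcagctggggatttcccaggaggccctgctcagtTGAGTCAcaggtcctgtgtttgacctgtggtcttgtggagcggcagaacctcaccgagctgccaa

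DNA replication and G1/S genes gave 12 of 24 above and 0 below (median log2 fold change 0.76), and DESeq2 called 5 higher, against 1.5% of all genes. Mcm2, a subunit of the replicative helicase, stood at 79.1 and 94.9 CPM in WT and at 158, 141, 192 and 178 CPM in KO (log2 fold change 0.94, SE 0.22, edgeR adjusted p = 0.244, DESeq2 adjusted p = 0.0077). Mcm6, another subunit, stood at 161 and 202 CPM in WT and at 405, 394, 538 and 431 CPM in KO (log2 fold change 1.28). The KO libraries were closer to each other for both genes than for Ccnb2, Kif2c and Top2a.

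Shmt1, a folate-cycle enzyme (chromosome 11, 60788897 to 60811265), stood at 7.16 and 4.74 CPM in WT and at 24.6, 20.9, 37.3 and 26 CPM in KO (log2 fold change 2.19, SE 0.38, edgeR adjusted p = 0.0641). Chek1, the DNA damage checkpoint kinase (chromosome 9, 36708482 to 36726658), stood at 0.309 and 0.892 CPM in WT and at 10.6, 7.49, 4.66 and 17 CPM in KO (log2 fold change 4.04, SE 0.70, edgeR adjusted p = 0.0641). Kntc1, a kinetochore protein (chromosome 5, 123749692 to 123821593), stood at 0.84 and 3.1 CPM in WT and at 14.3, 16, 15.9 and 25.2 CPM in KO (log2 fold change 3.18, SE 0.52, edgeR adjusted p = 0.061). The groups were far apart in all 3, and O was highest for Chek1 and Kntc1.

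Glp1r, Ppp2r2c and Clgn were nearly absent from WT rim. Glp1r, the receptor for glucagon-like peptide 1 (chromosome 17, 30901867 to 30936510), stood at 0.133 and 0 CPM in WT, 3 reads in all, and at 24.9, 14.3, 11.8 and 13.5 CPM in KO (edgeR adjusted p = 0.0541). The pooled counts gave a ratio of 233 with an exact Poisson interval of 79.4 to 1129 for counting error only. Ppp2r2c, a regulatory subunit of protein phosphatase 2A, had 2 reads in WT and stood at 11.4, 7.58, 5.37 and 5.97 CPM in KO, a pooled ratio of 163.9 with an interval of 45.2 to 1356 (edgeR adjusted p = 0.107). Clgn, an endoplasmic reticulum chaperone known from the testis, stood at 0.133 and 0.0939 CPM in WT 5 reads in all, and at 8.63, 3.6, 8.9 and 5.68 CPM in KO, a pooled ratio of 58.3 with an interval of 24.9 to 180.3 (edgeR adjusted p = 0.0641). All 3 genes were present in each KO rim library.

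The 12 leading genes lower in KO rim were Ubn2, Zfp963, Slc25a44, Pdp1, Plec, Slc20a1, S1pr4, Akap8, Wipf2, Ankrd11, Rbm48 and Acss2, with log2 fold changes from -1.33 to -0.54 and edgeR adjusted p from 0.0866 to 0.379. DESeq2, on the same counts from which they were chosen, called 7 of them. Ubn2, a subunit of a histone H3.3 chaperone complex (chromosome 6, 38433925 to 38512763), stood at 51.8 and 58.2 CPM in WT and at 17.4, 30.3, 22.4 and 22.1 CPM in KO (log2 fold change -1.26, SE 0.23, edgeR adjusted p = 0.0866, DESeq2 adjusted p = 0.00015). Pdp1, a phosphatase that activates pyruvate dehydrogenase, stood at 69.6 and 79 CPM in WT and at 41.2, 52.3, 43.4 and 50.4 CPM in KO (log2 fold change -0.67, SE 0.17, edgeR adjusted p = 0.302). Acss2, which makes acetyl-CoA from acetate, stood at 140 and 199 CPM in WT and at 93.8, 111, 88.3 and 65.3 CPM in KO (log2 fold change -0.92, SE 0.26, edgeR adjusted p = 0.379). The groups were closer in these genes than in those higher in KO. Slc25a44, a mitochondrial carrier of branched-chain amino acids, stood at 61 and 57.3 CPM in WT and 25.3 to 35 CPM in KO (edgeR adjusted p = 0.245, DESeq2 adjusted p = 0.015). Slc20a1, a phosphate transporter, stood at 237 and 324 CPM in WT and 129 to 224 CPM in KO, with F86 nearest to WT. Wipf2, a regulator of actin assembly, stood at 27.3 and 31.6 CPM in WT and 11.2 to 16.4 CPM in KO.

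Plec, the cytoskeletal linker plectin, stood at 188 and 248 CPM in WT and at 137, 142, 148 and 137 CPM in KO (log2 fold change -0.63, SE 0.16, edgeR adjusted p = 0.31). The KO libraries were nearly equal for Plec. Zfp963, a zinc finger gene, stood at 24.4 and 22.5 CPM in WT and 7.05 to 11.5 CPM in KO. Akap8, a nuclear anchoring protein for protein kinase A, stood at 483 and 348 CPM in WT and 233 to 318.7 CPM in KO. For Ankrd11, a chromatin regulator at 247 and 173 CPM in WT and 102 to 157 CPM in KO, and for Rbm48, an RNA-binding splicing factor at 102 and 63.1 CPM in WT and 37.4 to 59.4 CPM in KO, the gap between H877 and F322 was small.

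Glycolysis genes gave 6 of 18 above and 0 below (median log2 fold change 0.27), and DESeq2 called Aldoa, Pgk1 and Tpi1. Aldoa, aldolase A, stood at 423 and 433 CPM in WT and at 750, 520, 662 and 729 CPM in KO (log2 fold change 0.64, SE 0.14, edgeR adjusted p = 0.227). Tpi1, triosephosphate isomerase, stood at 73.1 and 84.5 CPM in WT and at 232, 93.5, 166 and 245 CPM in KO (log2 fold change 1.23). Pgk1, phosphoglycerate kinase, stood at 96.3 and 85.5 CPM in WT and at 198, 122, 147 and 163 CPM in KO (log2 fold change 0.79). F322 was the lowest KO library for all 3. Pseudogene copies such as Tpi-rs11 have entries of their own, so Tpi1 is uncertain.

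Hypoxia response genes were split, with 2 of 12 above and 2 below and a median log2 fold change of -0.08. P4ha1, a collagen hydroxylase subunit, was above, at 77 and 71.9 CPM in WT and 88.7 to 105 CPM in KO. Egln3, an oxygen sensor, was below, at 10.8 and 10.1 CPM in WT and 4.03 to 9.32 CPM in KO. Bnip3, a mitochondrial protein of hypoxic cells, overlapped, at 20.6 and 12.6 CPM in WT and 16.1 to 33.8 CPM in KO. Oxidative phosphorylation subunit genes gave 4 of 85 above (4.71%) and 2 below (2.35%), both under the shares of all genes (6.86% and 6.81%). Their median log2 fold change was 0.06, with 64 positive and 21 negative. Among them Atp5h stood at 222 and 270 CPM in WT and 188 to 208 CPM in KO, and Atp5j at 125 and 138 CPM in WT and 150 to 182 CPM in KO.

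Type I interferon response genes differed less in median than the effector cytokines did. Of 28 type I interferon response genes, 7 were above and 0 below (median log2 fold change 0.30), and DESeq2 called only Isg20. Isg20, an interferon-induced exonuclease, stood at 11.8 and 9.62 CPM in WT and at 32.1, 30.7, 39.3 and 32.6 CPM in KO (log2 fold change 1.66, SE 0.32, edgeR adjusted p = 0.107, DESeq2 adjusted p = 8.9e-05). Xaf1, an interferon-induced regulator of cell death, stood at 26.4 and 19.2 CPM in WT and 26.9 to 52.2 CPM in KO, so that O nearly met H874. Zbp1, a sensor of nucleic acids, stood at 65.9 and 61.6 CPM in WT and 76.2 to 110 CPM in KO. Of 20 interferon gamma and MHC class I genes, 2 were above and 0 below: Gbp5, a GTPase of cell defence, at 13.9 and 11.5 CPM in WT and 14.1 to 29.7 CPM in KO, and its relative Gbp3, at 38.4 and 40.5 CPM in WT and 43 to 63.3 CPM in KO. Psmb8, an immunoproteasome subunit, overlapped, at 490 and 594 CPM in WT and 554 to 754 CPM in KO.

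Heat shock genes gave 9 of 12 above and 0 below (median log2 fold change 0.68). Hspa8, the constitutive HSC70, stood at 1510 and 1178 CPM in WT and at 1772, 1932, 3443 and 2151 CPM in KO (log2 fold change 0.79, SE 0.24, edgeR adjusted p = 0.411). The near-identical genes Hspa1a and Hspa1b, whose reads cannot be told apart with certainty, were highest in F86, with Hspa1a at 9.28 and 5.87 CPM in WT and at 71.3, 20.1, 178 and 37.1 CPM in KO and Hspa1b at 29.6 and 10.1 CPM in WT and at 149, 66.9, 350 and 72.7 CPM in KO. DESeq2 called these 2. Immediate early genes, which rise when tissue is dissociated, were split, with 3 of 13 above, 2 below and a median log2 fold change of -0.01. Dusp1, a phosphatase, stood at 85.5 and 91.6 CPM in WT and at 225, 371, 189 and 141 CPM in KO, Ier2, an early transcription regulator, at 1028 and 954 CPM in WT and 500.4 to 866 CPM in KO, and Junb, an AP-1 subunit, at 3478 and 2312 CPM in WT and 1830 to 2585 CPM in KO. The part of tissue handling in the heat shock values was not tested.

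BCL-2 family and death genes gave 1 of 14 above and 1 below (7.14% each), near the shares of all genes (6.86% and 6.81%), with a median log2 fold change of 0.21. Bax, a pore former of mitochondria, was the member above, at 90.8 and 113 CPM in WT and 121 to 126 CPM in KO (edgeR adjusted p = 0.707). Bcl2a1b, of a family of near-identical genes and so uncertain, stood at 40.4 and 108 CPM in WT and 90.1 to 162 CPM in KO.

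**Figure D4:**
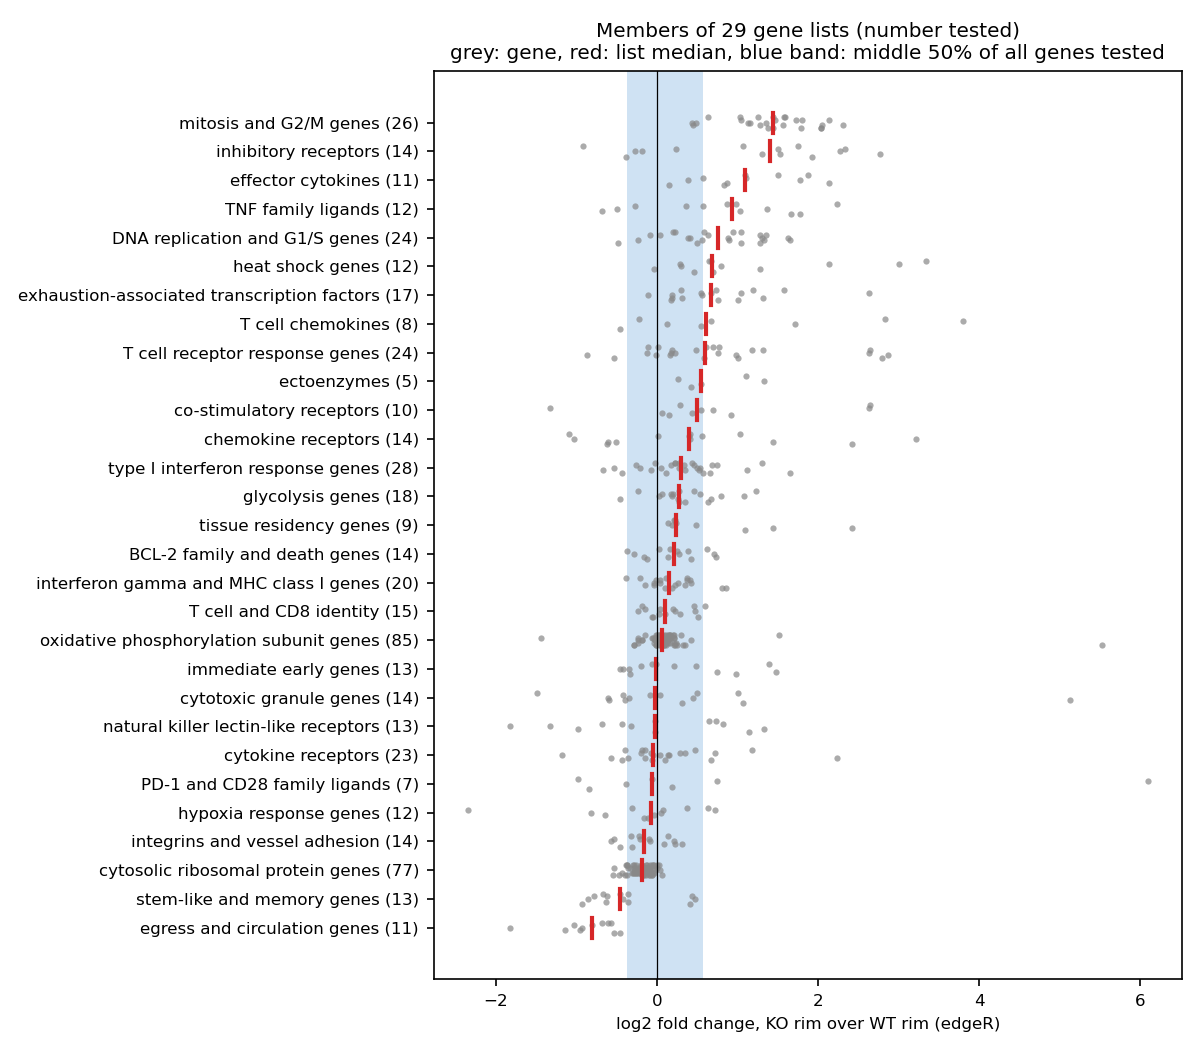
Log2 fold change, KO rim over WT rim, of each tested member of 29 gene lists (grey points), with the list median (red bar) and the middle 50% of all genes tested (blue band). Mitosis and G2/M genes (median 1.44) and inhibitory receptors (1.40) stand at the top, egress and circulation genes (-0.81) at the bottom, and T cell and CD8 identity genes (0.09) near 0.

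Markers of T cell and CD8 identity were high in all 6 libraries and checked the label: Cd8a stood at 758 and 868 CPM in WT and at 1329, 1077, 1218 and 1288 CPM in KO, and Cd3e at 925 and 787 CPM in WT and 978 to 1105 CPM in KO. Of 15 such genes 6 were above and 0 below, with a median log2 fold change of 0.09. Cd3g, a chain of the CD3 complex, stood at 926 and 663 CPM in WT and 1046 to 1270 CPM in KO, and Zap70, the kinase behind it, at 178 and 172 CPM in WT and 209 to 271 CPM in KO. The fold change of Cd8a on the log2 scale was 0.59 (SE 0.26, edgeR adjusted p = 0.658), less than that of Pdcd1, Tigit or Tnfrsf9.

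The rim libraries were also set beside the core libraries. Both WT rim libraries lay below all 15 other libraries for 558 genes (2.77%) and above all 15 for 497 (2.47%), a count not made for other pairs of libraries. They lay below all 15 for 15 of 26 mitosis and G2/M genes, 12 of 24 DNA replication and G1/S genes and 6 of 14 inhibitory receptors, and above all 15 for 4 of 11 egress and circulation genes. All 12 leading genes higher in KO rim and all 12 lower were on this extreme side, and the filter on rim libraries had already placed them outside the 4 KO rim libraries. Tnfrsf9, for example, averaged 399 CPM in WT core, 330 CPM in KO core and 204 CPM in KO rim against 32.7 CPM in WT rim. Xcl1 averaged 186 CPM in WT core, 124 CPM in KO core and 82.9 CPM in KO rim against 11.6 CPM in WT rim. For both genes KO rim was lower than either core group on average.

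Whether the KO effect differed between rim and core was tested by the difference of the 2 effects in the same fit. edgeR called 0 genes (0%), with a smallest adjusted p of 0.0621 and 1547 genes at an unadjusted p under 0.05, and DESeq2 called 159 (0.93%). For Xcl1 the rim effect exceeded the core effect by 3.42 on the log2 scale (SE 0.54, edgeR adjusted p = 0.0621), with a core log2 fold change of -0.58. The differences were 3.67 for Kntc1 (SE 0.59, edgeR adjusted p = 0.0621), 2.55 for Shmt1 (SE 0.44, edgeR adjusted p = 0.112) and 2.54 for Tnfsf4 (SE 0.45, edgeR adjusted p = 0.112). That of Tnfrsf4 was 3.09 (SE 0.57, edgeR adjusted p = 0.139), and Glp1r had an edgeR adjusted p of 0.0621. The core log2 fold change of these 6 genes ran from -0.58 for Xcl1 to -0.17 for Glp1r. Pdcd1 differed by 1.72 (edgeR adjusted p = 0.59) and Ccnb2 by 2.01 (edgeR adjusted p = 0.23).

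In the other direction the genes with the smallest p for the rim effect minus the core effect were Pdp1 (-1.08, SE 0.21, edgeR adjusted p = 0.162), Neat1 (-0.95, SE 0.22, edgeR adjusted p = 0.294), Ubn2 (-1.18, SE 0.29, edgeR adjusted p = 0.31), Acss2 (-1.30, SE 0.33, edgeR adjusted p = 0.328), Tmem131l (-0.82, SE 0.21, edgeR adjusted p = 0.364) and Top3a (-1.15, SE 0.30, edgeR adjusted p = 0.364). Neat1, a long noncoding RNA of nuclear paraspeckles, stood at 430 and 619 CPM in WT rim and 299 to 424 CPM in KO rim. Tmem131l, a membrane protein of developing T cells, stood at 157 and 171 CPM in WT rim and 117 to 167 CPM in KO rim. Top3a, a topoisomerase, stood at 97.8 and 47.8 CPM in WT rim and 39.1 to 45.8 CPM in KO rim. Ubn2 and Acss2 held both WT rim libraries above every KO rim library, while Tmem131l did not. In core the log2 fold change was positive for 5 of the 6, at 0.51 for Tmem131l, 0.41 for Pdp1, 0.39 for Neat1, 0.38 for Top3a and 0.38 for Acss2, and was -0.08 for Ubn2. For Tmem131l the core effect was larger than the rim effect of -0.30, and edgeR called none of the 6 in core or rim.

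Markers of other cell types varied widely between libraries, also within a genotype. Whether this spread exceeded the difference by genotype was not tested. Summed over 18 macrophage and monocyte markers, the level was 1626 and 3008 CPM in WT and 5646, 1594, 1119 and 10643 CPM in KO, so that F15 and O were high and F322 and F86 were at or under WT. The median log2 fold change of these markers was 1.68, with 18 of 18 positive and 3 above. At an unadjusted edgeR p under 0.05, 7 of the 18 were higher, against 4.67% of all genes. C1qa, C1qb and C1qc, the complement C1q chains of macrophages, were the 3 above and were called by DESeq2, with C1qc at 16.2 and 10 CPM in WT and at 124, 30.7, 23.6 and 220 CPM in KO. Without F15 and O, a choice made after seeing the data, the median was -0.35 for macrophage markers, 1.21 for inhibitory receptors (1.40 with all libraries) and 0.98 for mitosis and G2/M genes (1.44 with all libraries). With a covariate for macrophage markers in the fit, it was 1.36 for inhibitory receptors and 1.36 for mitosis and G2/M genes.

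Fibroblast and mural markers had a median log2 fold change of 2.42 and summed to 49.1 and 63.6 CPM in WT and 369, 41.3, 99 and 480 CPM in KO, with Fn1, fibronectin, at 28.9 CPM in F322 and 465 CPM in O. Lung epithelial and tumour markers summed to 92.9 and 353 CPM in WT and 204, 124, 269 and 934 CPM in KO. Their median log2 fold change was 1.68, with 15 of 16 positive, 2 above and 0 below. Epcam, a defining marker, was low but above, at 0.0884 and 0.141 CPM in WT, 5 reads in all, and at 1.7, 3.22, 0.587 and 1.37 CPM in KO. Its pooled ratio was 15 with an interval of 6.3 to 46.8, and DESeq2 called it (adjusted p = 0.025). Neutrophil markers summed to 62.3 and 132 CPM in WT and 241, 37.2, 13 and 269 CPM in KO. Endothelial markers did not separate the groups, at 232 and 148 CPM in WT and 111 to 167 CPM in KO, with Pecam1, which T cells also express, at 85.5 CPM in H877 and 56 to 104 CPM in KO, and higher in H874.

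Dendritic cell and MHC class II markers had a negative log2 fold change in 13 of 13 (median -0.83), and this rested on H877, without which the median was 1.23. They summed to 2992 and 10961 CPM in WT and 6202, 2904, 3512 and 7661 CPM in KO. Siglech, a marker of plasmacytoid dendritic cells named after its values were seen, was at 849 CPM in H877 and 509 CPM in KO F86, against 13.4 CPM in H874 and 0.746 to 4.78 CPM in F15, F322 and O. Flt3, a growth factor receptor of dendritic cells, was also highest in these 2 libraries, with 121 CPM in H877, 63.6 CPM in F86 and 2.39 to 4.36 CPM in the other rim libraries. Ccl22, a chemokine of dendritic cells, was at 1.37 and 142 CPM in WT and at 14.4, 0.847, 44.7 and 21.4 CPM in KO. The part of these cells in the differences between H874 and H877 was not tested.

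CD4 and regulatory T cell markers summed to 15.1 and 127 CPM in WT and 37, 18.4, 69.7 and 36.4 CPM in KO, with Cd4 itself, which dendritic cells of the mouse also express in part, at 4.77 and 107 CPM in WT and 3.73 to 60.9 CPM in KO. Zbtb7b, the factor of the CD4 lineage, stood at 2.61 and 3.38 CPM in WT and at 4.45, 4.11, 4.99 and 11.5 CPM in KO. Natural killer cell markers summed to 55.9 and 206 CPM in WT and 97.9 to 152 CPM in KO. B and plasma cell markers summed to 782 and 964 CPM in WT and 1458, 1214, 349 and 1024 CPM in KO. Red blood cell markers were lowest in F86 as well, at 0.713 CPM against 37.5 to 257 CPM in the other 5 rim libraries. The part of these markers in the T cell results was not tested.

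**Figure D5:**
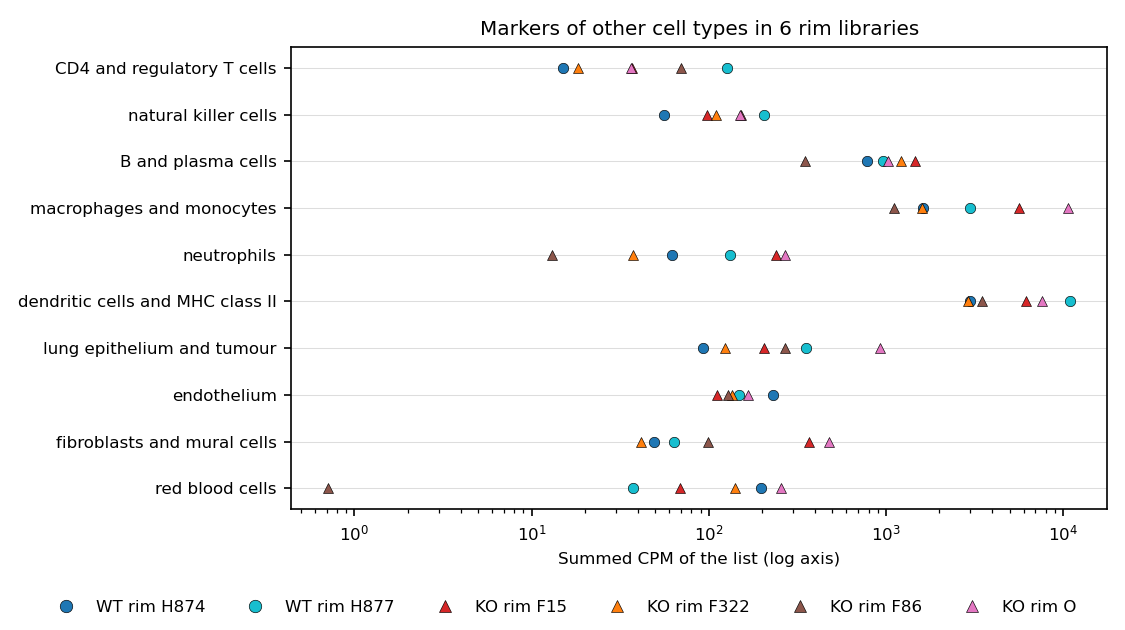
Summed CPM (log axis) of 10 lists of markers of other cell types in the 6 rim libraries, circles for WT and triangles for KO. Macrophage markers are highest in KO O (10643 CPM) and F15 (5646 CPM), dendritic cell and MHC class II markers in WT H877 (10961 CPM), and red blood cell markers are lowest in KO F86 (0.713 CPM).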

How the data were processed

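RNA was prepared with the Qiagen RNeasy Micro Kit and libraries with the Illumina TruSeq RNA kit, per the labels' protocols. Values as the authors deposited them are unnormalized counts, 1 row per gene symbol. Per the submitters' processing notes, tools were featureCounts, Subread 2.0.0, HISAT2, Bowtie2 2.4.5 and cutadapt 3.2, with builds mm10 and GRCm38. Strandedness is not given in the sources used here, so sense and antisense genes that overlap cannot be told apart.

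edgeR 4.0.16 (R 4.3.3) was used with filterByExpr, TMM and a robust quasi-likelihood fit of all 17 libraries in 4 groups, two-sided F test of KO rim minus WT rim and of its difference from core, Benjamini-Hochberg over 20137 genes. The SE equals the size of the log2 fold change over the root of F. The fit was tested on simulated counts. Alternatives used DESeq2 1.42.0 and limma 3.58.1. In rim libraries 3 counts equal 0.124 to 0.141 CPM. Intervals and this floor cover counting error only, since without molecular identifiers reads may repeat a molecule. Positions and promoters are from RefSeq (GRCm38.p6).

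The members and lists were chosen with earlier results of these data known. Genes were named by a rule: the 12 with the smallest unadjusted p in each direction for rim (5 CPM or more on average in the higher group, groups not overlapping, no clone, microRNA, pseudogene, Y-linked gene or Xist), 6 in each direction for rim minus core under the same filters of level and symbol, the 3 smallest-p members of each of 39 lists, and 15 textbook genes. Members of marker lists that the rule names but the text does not are covered by the summed levels. A few other genes that the rule names are not reported here. The identifiers were not treated as pairs in the main fit, as none is shared between KO rim and WT rim. Same-numbered KO core and KO rim libraries (F322, F86 and O) had correlations of their deviations from the group means of 0.0406 to 0.0732. Such values do not show that these libraries are unpaired. Xist counts were 0 in both core and rim for F322 and O, and 1815 and 1107 for F86. If the same animals gave both, the test of rim minus core ignores that pairing.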

Additional observations from a re-analysis of the deposited data

Results flagged for a closer look

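Among 169 genes and list levels looked at in the 4 KO rim libraries, 8 had 1 library far from the other 3 (a gap to the nearest that took most of the group's range, by Dixon's criterion), and chance alone flags about 1 in 20. O was the high library for Kntc1 (25.2 CPM) and Zbtb7b (11.5 CPM). F322 was the high library for Il7r (1069 CPM), the IL-7 receptor of memory cells. F86 was the high library for Siglech (509 CPM) and Flt3 (63.6 CPM), both of dendritic cells, and for the mean log2 CPM of T cell receptor response genes (7.23). F86 was the low library for the mean log2 CPM of BCL-2 family and death genes (5.97) and of CD4 and regulatory T cell markers (0.578), although their summed level was highest in F86 among KO rim libraries (69.7 CPM).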

How the results depend on the processing

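The number of genes called in the rim was 0 under edgeR, with either TMM or DESeq2 size factors, with a macrophage covariate, without the libraries rich in Y-linked reads, with the 6 rim libraries alone and without F15 and O together (the last chosen after seeing the data). It was 2 with no filter on low counts (Glp1r and Npl), 265 with DESeq2, 6 with limma's quality weights, and 0 to 26 when 1 rim library was left out. For the rim effect minus the core effect the count was 4 with no filter, 159 with DESeq2 and 0 to 14 when 1 library was left out. In these fits a lone WT rim library is assumed to vary like the other groups. They tested more genes (23546 without H874 and 23367 without H877, against 20137), and the median log2 fold change of all genes was 0.10 and 0.20. The cause of the other shifts was not tested.

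With the identifier as a replicate block in limma voom (correlation 0.0425), 8 genes were called in the rim, all lower, 4 of them predicted genes with Gm symbols. As no identifier is shared between KO rim and WT rim, the block pairs only KO core with KO rim. Deviations of same-identifier libraries correlated at 0.0406 to 0.0732, and each of the 3 core libraries correlated best with the rim library of its own identifier, a hint from the data and not from the design.

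Of 1950 fold changes of named genes under alternative settings, 1922 kept their direction and 28 did not. Gzmb, near 0 as reported, was 0.20 with the block, 0.15 with quality weights, 0.022 without Y-rich libraries and 0.11 without F15 and O. Cd274 was 0.00221 with quality weights and 0.032 without Y-rich libraries. All other changes of direction came from leaving out 1 library. Over those fits the log2 fold change ran from -0.34 to 0.29 for Cd274, -2.31 to 0.64 for Gzma, -0.76 to 1.20 for Gzmb, -0.58 to 1.11 for Prf1, -1.53 to 0.18 for Bach2, -1.14 to 0.95 for Tcf7, -1.29 to 0.75 for Lef1, -1.25 to 0.67 for Ccr7 and -0.92 to 0.61 for Il7r. It ran from -1.81 to 0.77 for Cx3cr1, -1.74 to 0.88 for Zeb2, -0.76 to 0.33 for Itgal, -1.99 to 0.76 for Il18rap, -1.70 to 0.53 for Klrc2, -0.70 to 0.077 for Rpl31 and -1.08 to 0.33 for Rps27. Among markers of other cells it ran from -2.05 to 2.46 for Cd4, -7.12 to 3.28 for Siglech, -4.15 to 2.97 for Flt3 and -2.80 to 3.90 for Ccl22. Of 585 list medians under alternatives, 539 moved by less than the SD of the list's level between rim libraries of a group, and 46 moved further. That limit is wider for lists whose level varies more between libraries, so the count does not measure how firm the medians are.

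In WT rim 3 reads stand for 0.133 to 0.141 CPM, so genes near that level there, such as Glp1r, Ppp2r2c, Clgn and Epcam, have no firm fold change at this depth.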
